A study of Homo sapiens with 3 samples.

Results

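Sensors of foreign or misplaced RNA and DNA, their adaptor MAVS, the RNA editor ADAR and the nucleotide hydrolase SAMHD1 were measured in cytokine-treated renal carcinoma cells. The 10 genes were IFIH1, DHX58, MAVS, TLR3, EIF2AK2, ADAR, ZBP1, AIM2, IFI16 and SAMHD1. They were taken by symbol from a table of 60605 genes, and each was found on 1 row. The rule for membership uses the symbol and no measured value, although the list was drawn up with earlier results of these data known.

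The cells were RCC4, a line from a human renal carcinoma of the clear cell type, carrying a lentiviral Cas9 vector. All 3 libraries came from cells given IFN-gamma at 1000 U/mL and TNF at 25 ng/mL for 24 h, with 3 flasks used for each biological replicate. Untreated cells were not analysed here, so every value is a level under treatment or a ratio within a library, and none is a response to the cytokines. Sequencing of poly(A) RNA gave 29199806 gene-assigned reads in replicate 1, 26264283 in replicate 2 and 33458691 in replicate 3. The 10 genes together held 54267, 51042 and 60499 of these reads.

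Cells recognise viral nucleic acid by its form and place. The helicase MDA5 (encoded by IFIH1) binds long double-stranded RNA in the cytosol and signals through MAVS on mitochondria, while TLR3 binds such RNA in endosomes. ADAR edits adenosine in the cell's own double-stranded RNA, which keeps that RNA from activating MDA5 and the kinase PKR. Interferons are known to raise many of these genes in epithelial cells.

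The RefSeq promoter table (build GRCh38.p14) held 11 windows for 8 of the 10 genes, each running from 250 bases before to 50 bases after a start site. DHX58 and ZBP1 were not matched. The core of the interferon-stimulated response element, the site bound by ISGF3 and the IRF factors, was searched on both strands as GAAA, any 2 bases, and GAAA again. It was present in windows of IFIH1, EIF2AK2, TLR3 and AIM2, and in 3.57% of all 35116 windows of that length. Matches are descriptions of the letters and not evidence of binding. The windows of those 4 genes are printed because such elements are a known route by which interferons act, and all libraries share an interferon treatment. Capitals mark every match to the core, which reads TTTC, 2 bases and TTTC where it lies on the other strand.
IFIH1, chr2:162318635-162318934, minus strand: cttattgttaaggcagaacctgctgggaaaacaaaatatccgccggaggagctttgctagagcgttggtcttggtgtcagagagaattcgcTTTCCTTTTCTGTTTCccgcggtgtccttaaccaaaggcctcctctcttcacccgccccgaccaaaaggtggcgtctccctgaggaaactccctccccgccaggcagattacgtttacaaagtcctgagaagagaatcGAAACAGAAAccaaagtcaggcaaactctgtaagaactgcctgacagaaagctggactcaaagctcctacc
EIF2AK2, chr2:37156931-37157230, minus strand: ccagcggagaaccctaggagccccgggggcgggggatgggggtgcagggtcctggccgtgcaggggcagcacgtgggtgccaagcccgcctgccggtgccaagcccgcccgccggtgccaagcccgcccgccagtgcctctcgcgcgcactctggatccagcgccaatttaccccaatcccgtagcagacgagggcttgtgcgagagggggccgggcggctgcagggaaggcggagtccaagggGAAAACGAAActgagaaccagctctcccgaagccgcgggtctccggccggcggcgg
TLR3, chr4:186068906-186069205, plus strand: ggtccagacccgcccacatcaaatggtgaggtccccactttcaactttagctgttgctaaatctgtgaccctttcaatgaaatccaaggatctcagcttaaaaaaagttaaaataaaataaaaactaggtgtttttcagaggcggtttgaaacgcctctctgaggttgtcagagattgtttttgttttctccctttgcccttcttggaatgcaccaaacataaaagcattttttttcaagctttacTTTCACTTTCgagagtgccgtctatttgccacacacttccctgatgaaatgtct
AIM2, chr1:159076717-159077016, minus strand: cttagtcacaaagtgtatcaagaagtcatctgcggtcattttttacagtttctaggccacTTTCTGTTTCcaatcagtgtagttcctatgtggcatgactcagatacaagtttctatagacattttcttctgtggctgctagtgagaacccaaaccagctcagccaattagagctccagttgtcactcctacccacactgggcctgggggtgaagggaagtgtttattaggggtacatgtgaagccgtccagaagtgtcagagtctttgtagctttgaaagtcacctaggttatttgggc

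IFIH1 held 3 matches, of which 2 overlapped, and the other 3 genes held 1 each. The match began 6 bases before the start site in EIF2AK2, 4 in TLR3, 21 in the nearest of IFIH1 and 190 in AIM2. A kappa-B consensus site, the motif of NF-kappa-B, was found in the IFIH1 window alone among the 11 and in 11.3% of all windows. The windows of ADAR, IFI16, MAVS and SAMHD1 held neither motif, which says nothing of the factors themselves.

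Of the 10 genes, 9 were detected, meaning at least 1 CPM (1 read in 1000000 after TMM scaling) in every library. The same rule was met by 51.4% of 19861 protein-coding genes and by 18.6% of all gene rows. AIM2 was the gene that did not pass. Levels of different genes are compared as RPKM, CPM divided by the length of all exons in kilobases, given as mean ± SD over the 3 libraries. The median of the 10 genes was 13.6 RPKM, against 0.482 RPKM for all protein-coding genes and 1.41 RPKM for those with less than 80% of their exons inside other genes' spans.

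**Figure D1:**
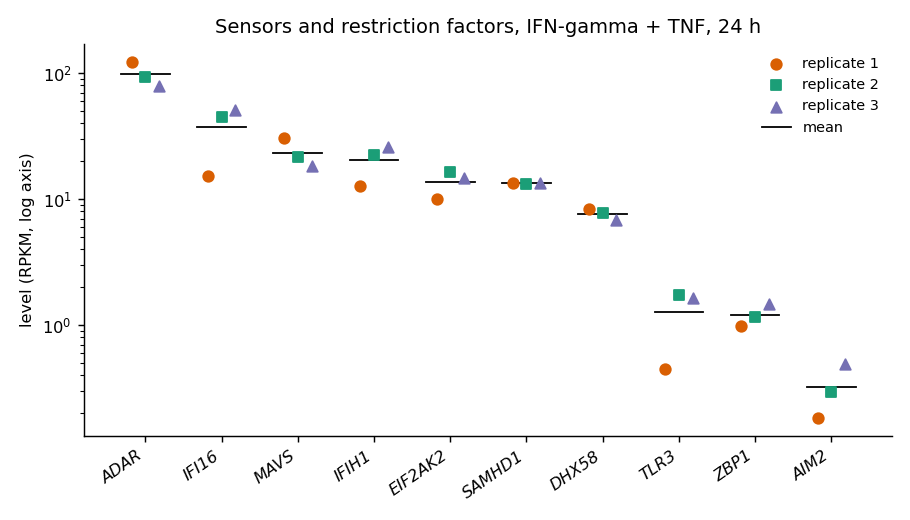
Level of each gene in each library (RPKM on a log axis, genes ordered by mean), with points for the 3 replicates and a black line for their mean. ADAR lies highest in every library at 79.0 to 123 RPKM, and AIM2 lowest at 0.183 to 0.487 RPKM; TLR3, IFI16, IFIH1, EIF2AK2, ZBP1 and AIM2 are lowest in replicate 1.

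The levels fell into a broad order led by ADAR, followed by IFI16, MAVS, IFIH1, EIF2AK2, SAMHD1 and DHX58, with TLR3, ZBP1 and AIM2 at the bottom. ADAR exceeded IFI16 in each library, and the ranges of these neighbours did not overlap. IFI16, MAVS, IFIH1, EIF2AK2 and SAMHD1 formed a middle group in which each neighbouring pair had overlapping ranges, although IFIH1 exceeded EIF2AK2 in each of the 3 libraries. Genes further apart in this group did not all overlap. MAVS lay above EIF2AK2 and SAMHD1, and IFI16 above SAMHD1, with no overlap. SAMHD1 lay above DHX58 with no overlap, and DHX58 lay above TLR3 with no overlap. TLR3 and ZBP1 overlapped, and both lay above AIM2 when each library was read on its own. Without replicate 1, IFIH1 at 24.1 RPKM passed MAVS at 19.9 RPKM, and the rest of the order stayed as given. In replicate 1 alone MAVS was second and IFI16 the third. SAMHD1 moved up to the fourth place with the longest transcript as length, at 27.4 RPKM, and with exon length outside other spans, at 21.2 RPKM. TLR3 and ZBP1 changed places with GC correction and with the longest transcript.

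IFIH1 encodes MDA5 and lies on chromosome 2 (GRCh38, gene span in GENCODE 29, 162267079 to 162318703, minus strand). It had 1770, 3086 and 4609 reads in replicates 1, 2 and 3, or 12.8, 22.2 and 25.9 RPKM, with a mean of 20.3 ± 6.80 (SD, n = 3). Replicate 1 was the low one, and its level ranked at the 83.9th percentile of protein-coding genes against the 90.5th and 91.7th in replicates 2 and 3.

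DHX58 encodes LGP2, a relative of MDA5 that lacks the signalling domains and tunes MDA5 activity (chromosome 17, 42101404 to 42112733, minus strand). Its reads numbered 871, 803 and 905 in replicates 1, 2 and 3, or 8.35, 7.69 and 6.77 RPKM, a mean of 7.60 ± 0.79 (SD, n = 3). Its coefficient of variation of 10.4% was the second smallest of the 10 genes, and its level ranked between the 75.4th and the 79.2nd percentile. DHX58 stood below IFIH1 in every library, by log2 ratios of -0.61, -1.52 and -1.92 in replicates 1, 2 and 3. The mean ratio was -1.35 ± 0.67 (SD, n = 3), so IFIH1 was 2.55-fold above DHX58. A ratio is called past the replicate spread where its sign is shared by all libraries and its mean exceeds 2 SD, and this one met that rule narrowly. It no longer did without replicate 2 (-1.26 ± 0.93), without replicate 3 (-1.06 ± 0.65), with a pseudocount of 1 (-1.26 ± 0.63) or with the longest transcript as length (-1.31 ± 0.68), though its sign stayed the same.

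MAVS, the adaptor on mitochondria to which MDA5 signals, lies on chromosome 20 (3846799 to 3876123, plus strand). It had 9769, 6838 and 7498 reads in replicates 1, 2 and 3, or 30.6, 21.4 and 18.3 RPKM, a mean of 23.4 ± 6.38 (SD, n = 3). Replicate 1 was the highest, the reverse of IFIH1. The log2 ratio of IFIH1 to MAVS was -1.25, 0.06 and 0.50 in replicates 1, 2 and 3, so the order of sensor and adaptor changed between libraries. Its mean of -0.23 ± 0.91 (SD, n = 3) did not pass the replicate spread, and it was 0.28 ± 0.31 without replicate 1.

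TLR3, the endosomal receptor for double-stranded RNA, lies on chromosome 4 (186069152 to 186088069, plus strand). It had 82, 318 and 386 reads in replicates 1, 2 and 3, or 0.449, 1.74 and 1.65 RPKM, a mean of 1.28 ± 0.72 (SD, n = 3). Replicates 2 and 3 lay close together and replicate 1 far below them, so the mean describes no single library well. Without replicate 1 the mean was 1.70 RPKM. TICAM1, which encodes the TLR3 adaptor TRIF, had 2822, 2318 and 2691 reads and a level of 33.2 ± 5.10 RPKM (SD, n = 3). The log2 ratio of TLR3 to TICAM1 was -6.15, -4.12 and -4.05 in replicates 1, 2 and 3, with a mean of -4.77 ± 1.19 (SD, n = 3) that passed the replicate spread.

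ADAR had the highest level of the 10 genes. It encodes the adenosine deaminase of double-stranded RNA and lies on chromosome 1 (154582057 to 154628013, minus strand). Its reads numbered 32390, 24446 and 26622 in replicates 1, 2 and 3, or 123, 92.9 and 79.0 RPKM, a mean of 98.3 ± 22.6 (SD, n = 3). Replicates 1, 2 and 3 placed it at the 98.4th, 98.2nd and 97.8th percentile of protein-coding genes. Values per gene do not separate the interferon-inducible long form, p150, from the constitutive short form, p110.

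The other editing enzymes were far lower. ADARB1, which edits transcripts of receptor channels in neurons, had 1007, 1015 and 1256 reads, or 3.67 ± 0.07 RPKM (SD, n = 3). ADAR exceeded ADARB1 by log2 ratios of 5.02, 4.61 and 4.42 in replicates 1, 2 and 3, a mean of 4.68 ± 0.31 (SD, n = 3), or 25.7-fold. ADARB2, which has no known editing activity, had 0, 0 and 4 reads.

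EIF2AK2 encodes PKR, the kinase that halts translation by phosphorylating eIF2-alpha when it binds double-stranded RNA (chromosome 2, 37099210 to 37157065, minus strand). It had 2944, 4819 and 5524 reads in replicates 1, 2 and 3, or 10.1, 16.5 and 14.8 RPKM, a mean of 13.8 ± 3.32 (SD, n = 3). Replicate 1 was the lowest. ADAR stood above EIF2AK2 by log2 ratios of 3.60, 2.49 and 2.41 in the same order, a mean of 2.83 ± 0.66 (SD, n = 3), or 7.12-fold. That ratio passed the replicate spread, with replicate 1 about 1 log2 unit above the other libraries. With GC correction, which takes from each library the median deviation of genes of like GC content, its SD was 0.06.

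ZBP1 binds nucleic acid in the left-handed Z form, as ADAR p150 also does, and drives necroptosis through RIPK3 and MLKL. It lies on chromosome 20 (57603846 to 57620576, minus strand) and had 143, 171 and 277 reads in replicates 1, 2 and 3. These gave 0.974, 1.17 and 1.47 RPKM, a mean of 1.20 ± 0.25 (SD, n = 3), near the 55.9th percentile of protein-coding genes. The log2 ratio of ZBP1 to ADAR was -6.84, -6.20 and -5.65 in replicates 1, 2 and 3. Its mean of -6.23 ± 0.60 (SD, n = 3) passed the replicate spread; it was -5.48 with a pseudocount of 1.

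AIM2 and IFI16 are neighbours on chromosome 1 and belong to the PYHIN family, whose HIN domains bind DNA. IFI16, a mainly nuclear sensor of viral DNA (158999968 to 159055155, plus strand), had 2183, 6492 and 9407 reads in replicates 1, 2 and 3. Its level was 15.2, 45.1 and 51.1 RPKM, a mean of 37.1 ± 19.2 (SD, n = 3). Replicate 1 was well under the other libraries, and without it the mean was 48.1 RPKM.

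AIM2, which assembles an inflammasome on cytosolic DNA (159062484 to 159147096, minus strand), had only 10, 16 and 34 reads, or 0.183, 0.293 and 0.487 RPKM. It was thus present at the edge of what this depth measures. IFI16 stood above AIM2 in each library, with log2 ratios of AIM2 to IFI16 of -5.75, -6.85 and -6.45 in replicates 1, 2 and 3 and a mean of -6.35 ± 0.55 (SD, n = 3). With AIM2 so near the pseudocount of 0.1 RPKM the size is uncertain, and the mean was -4.69 with a pseudocount of 1 and -7.95 without length scaling. The remaining family members, PYHIN1 and MNDA, were listed at 0 reads in each library.

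SAMHD1 hydrolyses deoxynucleotides and so starves reverse transcription in nondividing cells (chromosome 20, 36889773 to 36951901, minus strand). It had 4105, 4053 and 5237 reads in replicates 1, 2 and 3, or 13.4, 13.3 and 13.4 RPKM, a mean of 13.4 ± 0.09 (SD, n = 3). The coefficient of variation of 0.668% was the smallest of the 10 genes. Among 9095 protein-coding genes that averaged 5 CPM or more, 16 (0.176%) had a smaller one, and the median was 16.0%. Read counting alone is expected to give a larger spread at this depth, so the value does not measure how steady SAMHD1 is. Its genewise biological coefficient of variation from edgeR was 0.172, in the fit with no filter on low counts. That estimate is drawn toward the values of other genes and is not the spread of SAMHD1 alone. Part of its sequence, 36.9% of the exon length, lies inside the span of TLDC2 on the opposite strand. TLDC2 itself had 6, 14 and 22 reads. Over the exon length outside that span the level was 21.2 RPKM.

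RRM2, the ribonucleotide reductase subunit that supplies the deoxynucleotides SAMHD1 destroys, stood at 70.9 ± 11.4 RPKM (SD, n = 3). The log2 ratio of SAMHD1 to RRM2 was -2.64, -2.30 and -2.23 in replicates 1, 2 and 3, a mean of -2.39 ± 0.22 (SD, n = 3), which passed the replicate spread. RRM2 has 85.4% of its exons inside other spans, so its level depends on how overlapping reads were counted. The mean ratio was -4.50 with exon length outside other spans, -1.89 with the longest transcript and -1.32 without length scaling, below 0 under each.

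**Figure D2:**
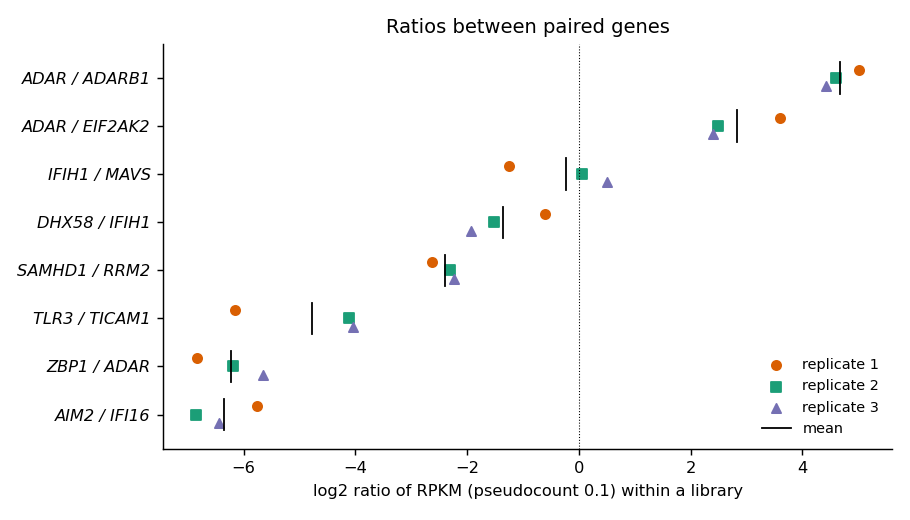
Log2 ratio of RPKM (pseudocount 0.1) within each library for 8 pairs of genes, the first named over the second, with points for replicates and a line for the mean. ADAR/EIF2AK2 and ADAR/ADARB1 lie right of 0 and ZBP1/ADAR lies left of it. IFIH1/MAVS straddles 0, running from -1.25 in replicate 1 to 0.50 in replicate 3.

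Of 10 pairs chosen, 8 could be formed and 7 passed the replicate spread, the exception being IFIH1/MAVS. No p-value is given, since an exact sign-flip test over 3 libraries cannot go below 0.25. IFIH1/DDX58 and SAMHD1/TREX1 were not formed. DDX58, which encodes the short-RNA sensor RIG-I, and TREX1, the main cytosolic DNA exonuclease, were listed at 0 reads in each library. TREX1 has all of its exons inside other spans. DDX58 has none inside the spans of GENCODE 29, but only 58337 of the 60605 gene rows matched that release, and a span it does not hold would be missed here, for DDX58 as for every overlap given. Neither 0 is read as absence. Of 666 protein-coding genes whose exons lay wholly inside another gene's span without touching its exons, 0 passed the detection rule. Of 9483 genes free of any overlap, 4967 passed it.

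Replicate 1 stood apart from replicates 2 and 3 along GC content in the series as a whole. The median log2 difference between replicate 1 and the mean of the other libraries was -1.47 in the lowest of 20 GC bins and 0.43 in the highest. The bins hold protein-coding genes averaging 5 CPM or more. GC content of the longest transcript of the 10 genes ran from 37.6% for TLR3 to 58.2% for DHX58, and it went with the log2 difference at Pearson's r of 0.72 and Spearman's rho of 0.82. Those points share 3 libraries and are no independent replicates.

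TLR3 and IFI16 differed most, by -1.88 and -1.66 on the log2 scale, replicate 1 minus the mean of replicates 2 and 3. Their transcripts are the poorest in GC at 37.6% and 38.6%. Of the 9 members averaging 5 CPM or more, these 2 were over 2-fold lower in replicate 1, as were 13.4% of all protein-coding genes at that level. None of the 9 was over 2-fold higher there, against 0.0550% of such genes. EIF2AK2, of nearly the same GC content as IFI16 at 38.7%, differed by only -0.63, and IFIH1, at 43.3%, by -0.91. MAVS at 0.63, ADAR at 0.52 and DHX58 at 0.21 were higher in replicate 1, and SAMHD1 was level at 0.01. AIM2 differed by -0.88 on 10 to 34 reads.

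**Figure D3:**
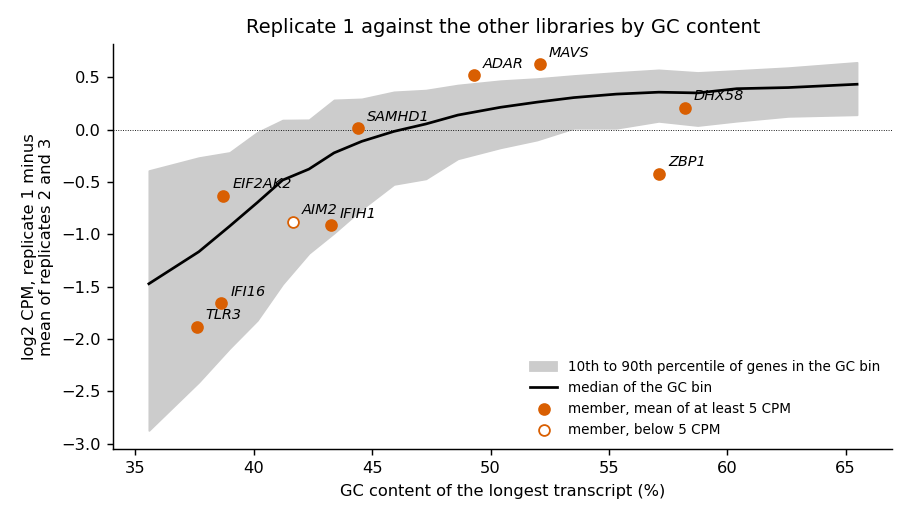
Log2 CPM of replicate 1 minus the mean of replicates 2 and 3 against the GC content of the longest transcript; the line and grey band give the median and the 10th to 90th percentile of protein-coding genes averaging 5 CPM or more in 20 GC bins. ZBP1 lies below the band at -0.42, ADAR and MAVS lie above it at 0.52 and 0.63, and the other 7 genes lie inside it.

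Of the 9 members averaging 5 CPM or more, 6 lay inside the 10th to 90th percentile of their GC bin, a band that holds 80% of such genes by construction. AIM2, below that level, also lay inside the band of its GC content. ZBP1, with a GC content of 57.1%, lay below its band, at -0.42 where the band ran from 0.08 to 0.57. ADAR and MAVS lay above theirs, at 0.52 where the band ended at 0.43 and at 0.63 where it ended at 0.49. After the median of the bin was subtracted, IFI16, TLR3 and IFIH1 still stood lower in replicate 1, at -0.74, -0.72 and -0.69, whereas EIF2AK2 stood at 0.29. Between replicates 2 and 3 none of the 10 genes differed by more than 2-fold, and 0.0110% of protein-coding genes averaging 5 CPM or more did.

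The genes closest in pattern were sought for the 3 highest members, as the smallest Euclidean distance between log2 deviations over 3 libraries, among 9095 protein-coding genes. ADAR was nearest to EXOSC4 and RGP1, at distances of 0.0054 and 0.0070. IFI16 was nearest to STK38L and USP1, at 0.012 and 0.024, and MAVS to CDC25A and NFIX, at 0.0075 and 0.0085. Such likeness was common, as 380, 90 and 243 genes lay within 0.1 of ADAR, IFI16 and MAVS.

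The other genes of these pathways, 70 in 6 lists, were detected in 50 cases, and 15 were listed at 0 reads. Among the 58 with less than 80% of their exons inside other spans, 48 were detected, against 9925 of 16684 protein-coding genes of that kind. RNA sensing and its signalling had 11 of 14 genes detected with a median of 11.4 RPKM. IRF3, the factor that MAVS and TRIF activate, led it at 44.2 ± 6.18 RPKM, followed by TICAM1 and by TRIM25, the ubiquitin ligase of RIG-I, at 28.7 ± 4.07 RPKM (SD, n = 3 each). The kinase TBK1, which acts on IRF3, was low at 0.634, 3.24 and 4.50 RPKM in replicates 1, 2 and 3. DDX60, an interferon-inducible helicase, ran from 0.835 RPKM in replicate 1 to 9.79 RPKM in replicate 3. TLR7 and TLR8, endosomal receptors of blood cells, were listed at 0.

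Among effectors of double-stranded RNA, 11 of 14 genes were detected with a median of 3.68 RPKM. DHX9, a helicase that binds such RNA in the nucleus, stood at 55.1 ± 3.05 RPKM. PPP1R15A, which directs removal of the phosphate that PKR adds, stood at 55.4 ± 11.2 RPKM, and EIF2S1, the PKR substrate, at 16.4 ± 1.86 RPKM (SD, n = 3 each). OAS2 and OAS3, wholly inside other spans, were listed at 0.

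DNA sensing had 7 of 13 genes detected and the lowest median of the 6 lists, 0.490 RPKM. Without the 3 genes mostly inside other spans it was 7 of 10 with a median of 1.36 RPKM, still the lowest of the 6. Both medians were near those of all protein-coding genes, 0.482 RPKM, and 1.41 RPKM without genes mostly inside other spans. The detection rule was met by 10201 of 19861 protein-coding genes, and by 9925 of 16684 without such genes. DNA sensing was thus low beside the other lists, and not beside protein-coding genes at large. STING1, the adaptor downstream of cGAS and IFI16, led at 42.3 ± 5.06 RPKM, and CGAS, the enzyme that makes its ligand, stood at 16.6 ± 2.19 RPKM (SD, n = 3 each). The ranges of IFI16 and STING1 over the libraries overlapped. Of the inflammasome partners of AIM2, CASP1, the protease it activates, was detected and stood at 1.47 ± 0.32 RPKM (SD, n = 3). PYCARD, the adaptor between them, had 2 reads in each library. Because 78.5% of the PYCARD exon length overlaps other spans, no low level is read from that count. RNASEH2A and TLR9, wholly or almost wholly inside other spans, were listed at 0.

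**Figure D4:**
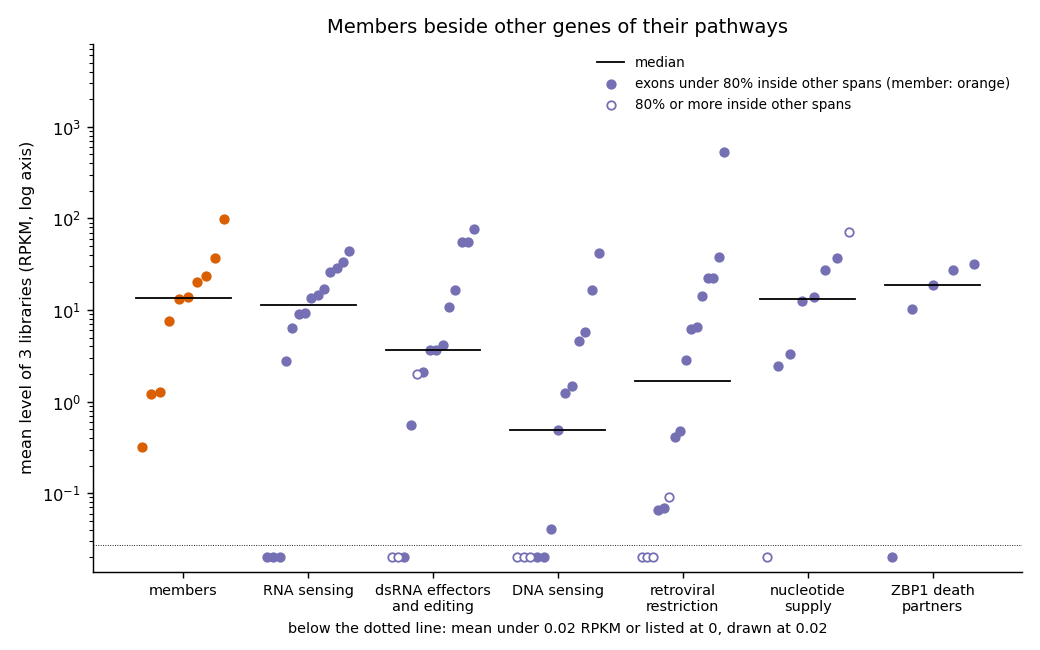
Mean level of each gene over 3 libraries (RPKM, log axis) for the 10 genes, in orange, and 6 lists of related genes, with a line at each median; open points have 80% or more of their exons inside other genes' spans. ADAR at 98.3 RPKM is above every gene of the other lists except BST2 at 528 RPKM.

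Retroviral restriction genes were detected in 10 of 16 cases with a median of 1.66 RPKM. Leaving out the 4 genes mostly inside other spans, the detection rule was met by 10 of 12, and the median level of those 12 came to 6.40 RPKM. BST2, which tethers virions to the cell, stood at 528 ± 62.2 RPKM, SLFN11, which blocks viral translation, at 37.4 ± 3.88 and SERINC3, an inhibitor of virion entry, at 22.4 ± 0.31 RPKM (SD, n = 3 each). The cytidine deaminases APOBEC3F and APOBEC3G stood at 6.56 ± 0.89 and 6.25 ± 0.33 RPKM, while APOBEC3B and APOBEC3D, wholly inside other spans, were listed at 0. APOBEC3A had 6, 2 and 6 reads. MX2, which blocks nuclear entry of HIV, stood at 0.478 ± 0.083 RPKM.

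Of the genes that supply nucleotides or phosphorylate SAMHD1, 7 of 8 were detected. RRM1 stood at 36.5 ± 2.80 RPKM and CCNA2, the cyclin partner of the SAMHD1 kinases, at 27.5 ± 3.13 RPKM (SD, n = 3 each). CDK1 had 394, 1759 and 2864 reads in replicates 1, 2 and 3, or 3.69, 16.5 and 20.9 RPKM. On the log2 scale CDK1 differed by -2.32, replicate 1 minus the mean of replicates 2 and 3, at a GC content of 37.0%. The GC bins centred on 35.6% and 37.7% had median differences of -1.47 and -1.17. The cause of the CDK1 difference was not tested. CDK2, wholly inside another span, was listed at 0.

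The partners of ZBP1 in cell death were detected in 4 of 5 cases. MLKL, the pore-former of necroptosis, stood at 31.8 ± 0.32 RPKM, RIPK1 at 27.0 ± 0.95 and the adaptor FADD at 18.6 ± 4.13 RPKM (SD, n = 3 each). No library had a read listed for RIPK3, the kinase between ZBP1 and MLKL. Other spans hold 28.9% of the RIPK3 exon length, and its 0 is not read as absence.

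AIM2 and ZBP1 are best known from blood cells. Of 14 leukocyte markers, CSF1R, ITGAM and CD53 were detected, and all 14 together summed to 7.40 to 8.65 CPM over the libraries. The defining markers PTPRC, CD3E, CD3D and MS4A1 were at 0 reads. Markers of endothelium and fibroblasts were detected in 1 of 10 cases. Markers of the labelled renal carcinoma epithelium were detected in 11 of 12 cases, among them PAX2, CA9 and KRT8, and the exception, NNMT, lies wholly inside other spans.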

How the data were processed

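RNA was measured in 3 libraries that the labels describe as biological replicates of 1 treated group. The authors deposited a signal for each gene. From the values, it is a read count divided by the size factor of its library: 100% of nonzero values were whole multiples of 1 read within 0.01. The recovered size factors were 0.946, 0.971 and 1.24. The design had assumed counts, and these recovered reads took their place. Per the submitters' processing notes, the tools were featureCounts 2.0.0, HISAT2 2.1.0 and cutadapt 1.18, on hg38. The strand setting, counting options and annotation release were not given in the sources used here. Values may thus include intronic reads and miss reads in overlapping genes. Genes with 2 reads far outnumbered those with 1 (in replicate 1, 1621 against 269), the pattern that counting both mates of each pair gives, so reads are not independent molecules.

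Gene rows were matched to GENCODE 29 (GRCh38) by identifier without version, 58337 of 60605 (96.3%). That release gave exon lengths, overlap and the GC content of the longest transcript; a gene with 80% or more of its exons inside other spans is counted as covered. Reads were TMM-scaled in edgeR 4.0.16 (R 4.3.3); ratios used log2(RPKM + 0.1). With 1 group there was no test. Biological coefficients of variation came from edgeR with an intercept only. The methods were tested on simulated data. For the coefficients of variation these were independent counts, with no GC shift in replicate 1 and no counting of both mates. That test covers the calculation and not those features of the data.

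The 10 genes, lists and pairs were chosen with earlier results of these data known. The rule named all members and pairs, the 3 highest and lowest of each list and those listed at 0, and the 2 genes nearest in pattern to the 3 highest members; further genes in the lists were named after their values were seen. Alternatives were DESeq2 1.42.0 size factors, the authors' scaling, other thresholds, lengths and pseudocounts, a GC correction and leaving out each replicate. A few genes of the lists and 1 of the motifs searched are not reported here.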

Additional observations from a re-analysis of the deposited data

How the results depend on the processing

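The number of members detected stayed within 7 (at 10 CPM) to 10 (at 0.1 CPM, or at 10 reads in every library), and was 9 under the other alternatives tried. Of the 70 pathway genes, 38 to 51 were detected under every alternative, and 48 without covered genes, a choice made after seeing the data. Mean levels of the 10 genes moved by less than the replicate SD under other scalings and GC correction. By their construction these settings hardly change the mean of a gene over the libraries, so they are no check on it. Leaving out 1 of 3 libraries cannot move a mean beyond that SD, so nothing is concluded from that setting. Without replicate 1 the mean of IFI16 went from 37.1 to 48.1 RPKM. With the longest transcript as length 5 of the 10 moved, and with exon length outside other spans SAMHD1 moved, to 21.2 RPKM.

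The 7 ratios past the replicate spread kept their sign under the alternatives tried, and 6 of them kept that call; DHX58/IFIH1 lost it under 4. IFIH1/MAVS, not called, was positive without replicate 1 (0.28) and with the longest transcript (0.27). None moved beyond its SD with GC correction, which works on deviations from each gene's own mean and so can hardly move a mean ratio. What it changed was the SD. That fell from 0.66 to 0.06 for ADAR/EIF2AK2 and from 1.19 to 0.36 for TLR3/TICAM1. For ADAR/ADARB1 it rose from 0.31 to 0.40, and for ZBP1/ADAR from 0.60 to 0.70. Leaving out 1 of 3 libraries cannot move a mean ratio beyond its SD, so that setting is no check on its size. Without length scaling the log2 ratio was -1.44 for IFIH1/MAVS, -3.57 for TLR3/TICAM1, -7.17 for ZBP1/ADAR, -7.95 for AIM2/IFI16 and -1.32 for SAMHD1/RRM2. With a pseudocount of 1 it was -5.48 for ZBP1/ADAR and -4.69 for AIM2/IFI16. SAMHD1/RRM2 was -4.50 with exon length outside other spans and -1.89 with the longest transcript.

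The difference of replicate 1 from replicates 2 and 3, less the median of its GC bin, was -0.69 for IFIH1, -0.14 for DHX58, 0.36 for MAVS, -0.72 for TLR3, 0.29 for EIF2AK2, 0.38 for ADAR, -0.78 for ZBP1, -0.40 for AIM2, -0.74 for IFI16 and 0.12 for SAMHD1. With DESeq2 size factors it was 0.025 for SAMHD1. The common biological coefficient of variation, 0.284 over 11266 genes, ran from 0.0717 without replicate 1 to 0.376 without replicate 2, and was 0.320 with no filter on low counts. The cause of these shifts was not tested.

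No paired analysis was possible because the labels give 1 group. Depth limits AIM2, with 10 to 34 reads, and TLR3 in replicate 1, with 82.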
